A study of Homo sapiens with 8 samples.

Results

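The mRNA levels of 10 histone-modifying enzymes whose marks oppose polycomb were followed in HepG2 cells treated with EZH1/2 inhibitors. They were the H3K27 demethylases KDM6A and KDM6B, the acetylases CREBBP and EP300, the H3K4 methylases KMT2A, KMT2B, KMT2C and KMT2D, and the H3K36 methylases NSD1 and NSD2. They were chosen by symbol and not by a rule on their values, although earlier results of these data were known. Each symbol matched a single row among the 25603 genes of the deposited table. HepG2 is an established human hepatocarcinoma cell line, so that the data describe a single tumor line. Cells were exposed for 4 days to UNC1999 and valemetostat tosylate together, each at 1 µM (EZHi), or to vehicle (0.2% DMSO by the labels, while the study's methods give a lower concentration), with 4 libraries per group. The study describes the libraries of a group as independent biological replicates of this line, while the labels only number them.

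Polycomb repressive complex 2 (PRC2) methylates lysine 27 of histone H3 through EZH1 or EZH2, and H3K27me3 marks silent promoters. KDM6A and KDM6B remove this mark, while CREBBP and EP300 acetylate the same lysine, and a given lysine cannot carry both modifications. KMT2 enzymes methylate H3K4 at promoters and enhancers of active genes, and NSD enzymes methylate H3K36, a modification known to impede PRC2 on the same histone tail. The inhibitors block catalysis by EZH1 and EZH2, and mRNA levels say nothing of enzyme activity.

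Values are on a log2 scale corrected for transcript length, and an estimated FPKM (fragments scaled by transcript length and library size) is quoted where a linear level helps. Genes averaging 0.1 or more in estimated FPKM entered the limma fit, and those with a Benjamini-Hochberg adjusted p under 0.05 over all 20153 genes tested are described as called. All 10 hepatocyte markers listed for the cell line were measured, with summed estimated FPKM from 24100 to 47000 in vehicle and from 26600 to 43100 in EZHi. Among these, FGB rose by 0.92 (limma adjusted p 0.00167). Of markers of other cells, 4 of 5 for cholangiocytes, 2 of 5 for fibroblasts and 0 of 4 for blood and 0 of 3 for keratinocytes passed the filter. Their summed levels were 499 to 814, 12.3 to 15, 0.051 to 0.0512 and 0.0117 in vehicle, and 616 to 855, 14.8 to 17.3, 0.0624 to 0.0731 and 0.0117 to 0.0123 in EZHi. Of the endothelial markers (3 of 4 tested), CDH5 and VWF rose by 2.28 and 1.45 on the log2 scale while PECAM1 changed by 0.04. The summed endothelial level was 2.26 to 2.72 in vehicle and 3.42 to 7.21 in EZHi, and its part in the results below was not tested.

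NSD2 was the single member called among the 9 that passed the filter, and it was lower in EZHi. The other 8 tested members were not called, and NSD1 was listed near the floor of the table in every library. The count of 1 called lower and 0 called higher of 9 stands beside 4.27% of all tested genes called lower and 8.85% called higher (13.1% in either direction). Among genes at or above 10 in estimated FPKM, 9.16% were called lower and 2.73% higher. The share of members called lower was therefore close to that of genes of similar level. The median log2 fold change of the 9 members was -0.063, against -0.0077 over all genes tested and -0.0945 over genes at or above 10 in estimated FPKM.

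The H3K36 methylases had the most contrasted levels. NSD2 (ENSG00000109685, GRCh38 chr4:1871393-1982207, plus strand) places H3K36me2. Its log2 values were 10.32, 10.35, 10.29 and 10.34 in vehicle replicates 1 to 4 and 10.11, 10.03, 10.03 and 10.00 in EZHi replicates 1 to 4. All 4 EZHi libraries were below all 4 vehicle libraries, which was also the case for 7.93% of the genes tested. NSD2 was the single one of the 9 tested members without overlap, found in 18.6% of all genes in either direction. The mean went from 10.33 ± 0.029 (SD, n = 4) to 10.04 ± 0.045 (SD, n = 4), or from 50.2 ± 0.99 to 41.3 ± 1.31 in estimated FPKM (SD, n = 4). The resulting log2 fold change of -0.28 (SE 0.054, limma adjusted p 0.00725) corresponds to a change of -17.8% with a 95% interval from -24.5% to -10.6%. NSD2 was lower in 4 of 4 pairs of equal replicate number, by 0.21 to 0.34 on the log2 scale. Of all genes tested, 24.2% were lower in every pair. With quantile normalization its change was -0.19 and the call was lost (limma adjusted p 0.0557), and over the 12 alternatives that kept all libraries the adjusted p ranged from 0.000172 to 0.0557. Quantile normalization called 3.89% of all genes lower.

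NSD2 varied less between replicates than nearly all other genes. Its pooled SD was 0.038 on the log2 scale, and only 0.584% of the 13007 genes at or above 1 in estimated FPKM had a smaller one. The next steadiest member was KDM6A, with a pooled SD of 0.097, and KDM6B was the most variable, with 0.30. The fall of NSD2 exceeded this spread. A fall as large (-0.283) lies within the 95% intervals of KDM6A, KDM6B, KMT2A, KMT2B, KMT2C and KMT2D. The intervals of CREBBP and EP300 ended just short of it, at -0.281 and -0.257.

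NSD1 (ENSG00000165671, chr5:177131830-177300213, plus strand), the paralog of NSD2, was the exception in level. Its log2 value was -2.25 in each of the 4 vehicle libraries and -1.90, -2.03, -2.25 and -2.25 in EZHi replicates 1 to 4. Multiplied back by transcript length, this amounts to between 1.09 and 1.38 normalized reads per library, against 3930 to 5010 for NSD2. The values come from a regularized log, which shrinks differences of low genes, so the NSD1 figures are not observed read counts. Only 0.703% of the genes in the table had a lower mean level. NSD1 was therefore left out of the test, and no fold change is given. Over all genes without a filter, its limma adjusted p was 0.274.

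Several measurements bear on how the NSD1 value was obtained. The flanking genes on the same chromosome were above the NSD1 level in vehicle. FGFR4 (chr5:177086905-177098144) was at 13.23 ± 0.071 and RAB24 (chr5:177301198-177303744) at 6.50 ± 0.096 (SD, n = 4). RAB24 was itself below KDM6A (7.50), the lowest tested member. These neighbors were looked up after the NSD1 value was seen. Other annotated genes cover 4.63% of the NSD1 exon bases. Of all 32-base windows in its exons, 4.58% occur elsewhere on the hg38 chromosomes and 2.23% on the alternate contigs of hg38, where reads may align equally well and be discarded. In comparison, 98.2% of the exon windows of BRD2, a gene of the MHC region, occur on such contigs. The reason for the NSD1 value was not tested.

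The promoters of both NSD genes are rich in CG dinucleotides, the sequence context bound by CXXC domains such as those of KMT2A and KMT2B. The 250 bases before the RefSeq start site that matches the Ensembl canonical transcript are shown for NSD2, the member that fell, and NSD1, the member at the floor, on GRCh38.p14, 5′ to 3′, with each CG in capitals.
NSD2 (chr4:1871143-1871392, plus strand): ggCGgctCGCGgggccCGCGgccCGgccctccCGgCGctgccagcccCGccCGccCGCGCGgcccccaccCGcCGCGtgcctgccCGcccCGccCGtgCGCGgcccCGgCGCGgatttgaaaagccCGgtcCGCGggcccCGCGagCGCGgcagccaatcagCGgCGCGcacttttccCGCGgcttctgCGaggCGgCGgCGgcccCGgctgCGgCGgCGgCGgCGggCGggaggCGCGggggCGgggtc
NSD1 (chr5:177133523-177133772, plus strand): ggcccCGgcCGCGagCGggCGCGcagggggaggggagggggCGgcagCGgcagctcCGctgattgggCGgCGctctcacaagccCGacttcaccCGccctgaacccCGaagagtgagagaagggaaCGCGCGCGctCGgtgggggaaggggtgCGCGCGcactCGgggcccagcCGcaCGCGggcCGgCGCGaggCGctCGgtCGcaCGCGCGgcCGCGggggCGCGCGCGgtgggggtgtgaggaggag
These windows hold 50 and 41 CG dinucleotides, and only 0.1% and 1.7% of the 35116 RefSeq windows hold as many. RefSeq lists 5 start sites for NSD1, whose windows hold from 7 to 41.

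In the window matched to the canonical transcript, all 10 members had more CG dinucleotides than the median of all RefSeq windows. This did not hold for every listed start site. RefSeq lists 2 for KDM6B, whose windows hold 1 and 21, and the lowest NSD1 window holds 7. The matched windows of the members held a median of 33 CG dinucleotides, from 21 in KDM6B to 50 in NSD2, against a median of 11 over all windows. The GC box GGGCGG, searched on both strands, was present in 9 of 10 members (all but EP300) and in 42.6% of all windows. CCAAT was present in 3 (KDM6A, NSD1 and NSD2) and in 32% of all windows, and TATAAA in 0 and in 10.7%. These are descriptions of letters and do not show that a factor binds.

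**Figure D1:**
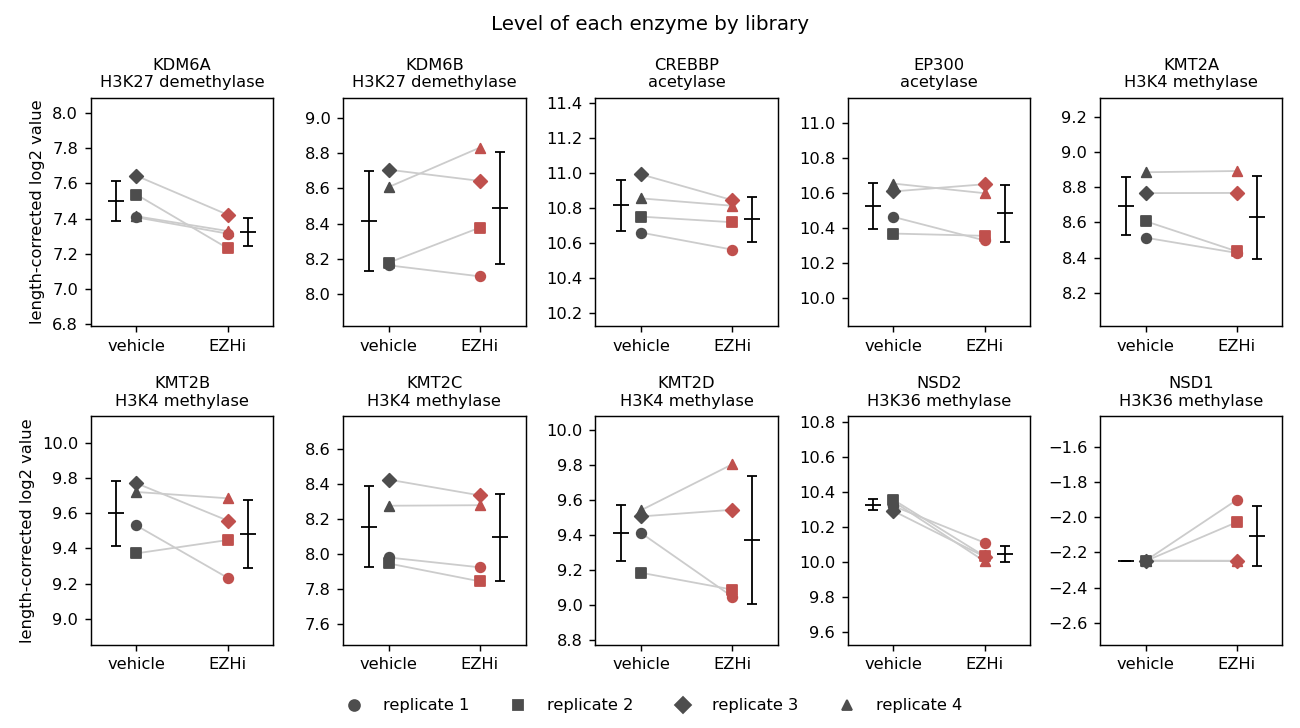
Length-corrected log2 value of each of the 10 enzymes in the 4 vehicle (grey) and 4 EZHi (red) libraries, with lines joining libraries of equal replicate number and black bars giving mean ± SD (n = 4 per group). Each vertical axis spans the same range of log2 units around its own level, and does not start at 0. The groups separate for NSD2 alone, while the values of NSD1 lie between -2.25 and -1.90.

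The H3K27 demethylases, which erase the mark that EZH1/2 deposit, were not called. KDM6A (ENSG00000147050, chrX:44873188-45112779, plus strand) had log2 values of 7.41, 7.54, 7.64 and 7.41 in vehicle replicates 1 to 4 and 7.31, 7.23, 7.42 and 7.33 in EZHi replicates 1 to 4. EZHi was below vehicle in 4 of 4 pairs, as it was for 24.2% of all genes tested, but the groups overlapped. Vehicle averaged 7.50 ± 0.11 and EZHi 7.32 ± 0.078 (SD, n = 4 each), which gave a log2 fold change of -0.18 (95% interval -0.37 to 0.015, limma adjusted p 0.227). KDM6A passed the threshold in a single alternative, which combined the replicate block with removal of the length and GC trend of each library (limma adjusted p 0.0424), where 19.2% of all genes were called lower. Its change was -0.10 after centring each library on genes at or above 10 in estimated FPKM.

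KDM6B (ENSG00000132510, chr17:7834217-7854796, plus strand), which many cells induce in response to stimuli, was the single tested member with a positive change. Its log2 values were 8.16, 8.18, 8.71 and 8.61 in vehicle replicates 1 to 4 and 8.10, 8.38, 8.64 and 8.83 in EZHi replicates 1 to 4. Replicates 3 and 4 were above replicates 1 and 2 in both groups, and the groups overlapped nearly completely. The log2 fold change was 0.07 (95% interval -0.33 to 0.47, limma adjusted p 0.846), with 2 pairs up and 2 down, and the sign turned when the length and GC trend was removed (-0.0044) and without vehicle replicate 1, vehicle replicate 2 or EZHi replicate 4 (down to -0.040).

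The acetylases CREBBP and EP300, close paralogs that act as coactivators for many transcription factors, were among the 3 highest members and did not separate between groups. CREBBP (ENSG00000005339, chr16:3725054-3880713, minus strand) ranged from 10.66 to 10.99 in vehicle and from 10.56 to 10.84 in EZHi. EP300 (ENSG00000100393, chr22:41092592-41180077, plus strand) ranged from 10.37 to 10.65 in vehicle and from 10.33 to 10.65 in EZHi. The log2 fold change was -0.08 for CREBBP (95% interval -0.28 to 0.12, limma adjusted p 0.639) and -0.04 for EP300 (95% interval -0.26 to 0.18, limma adjusted p 0.845). CREBBP was lower in 4 of 4 pairs, by 0.032 to 0.15, as were 24.2% of all genes tested. Its change was -0.020 without vehicle replicate 3, -0.022 without EZHi replicate 1 and -0.131 without vehicle replicate 1. With quantile normalization both had a positive sign, at 0.039 and 0.070.

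The H3K4 methylases fall into the pair KMT2A and KMT2B, which act mainly at promoters, and the pair KMT2C and KMT2D, which act mainly at enhancers. KMT2A (ENSG00000118058, chr11:118436456-118526832, plus strand) ranged from 8.51 to 8.89 in vehicle and from 8.43 to 8.89 in EZHi. KMT2B (ENSG00000272333, chr19:35717973-35738880, plus strand) ranged from 9.37 to 9.77 and from 9.23 to 9.69. The groups overlapped for both. KMT2C (ENSG00000055609, chr7:152134922-152436644, minus strand) ranged from 7.95 to 8.42 and from 7.84 to 8.33. KMT2D (ENSG00000167548, chr12:49018975-49060794, minus strand) ranged from 9.19 to 9.54 and from 9.05 to 9.80, the widest EZHi group of all members (SD 0.36, n = 4).

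None of the KMT2 genes was called in the limma fit, at adjusted p from 0.584 (KMT2B) to 0.916 (KMT2D). The log2 fold changes were -0.06 for KMT2A (95% interval -0.35 to 0.22), -0.12 for KMT2B (-0.38 to 0.14), -0.06 for KMT2C (-0.39 to 0.27) and -0.04 for KMT2D (-0.41 to 0.33). These intervals leave room for changes of up to -24.8% and 25.8% in KMT2D. Without EZHi replicate 1 the change of KMT2B was -0.035, and leaving out vehicle replicate 2 made it -0.194, the ends of the range over the 8 libraries. KMT2B was called lower only with the replicate block and the length and GC trend removed together (-0.21, limma adjusted p 0.0173). After the same centring, KMT2A, KMT2C and KMT2D had a positive sign, at 0.012, 0.014 and 0.035.

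Exons of KMT2A and KMT2C overlap other sequence more than those of the other members. In GENCODE 44, 19.3% of the KMT2A exon bases lie in other annotated genes, an unnamed gene on the same strand and TTC36-AS1. Of the KMT2C exon windows, 12.8% occur elsewhere on the hg38 chromosomes, where part of this gene has been duplicated during primate evolution. The corresponding share was 8.21% for KDM6A and from 0.42% (KDM6B) to 4.58% (NSD1) for the other members. Reads from such stretches may have been lost or assigned to other genes.

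**Figure D2:**
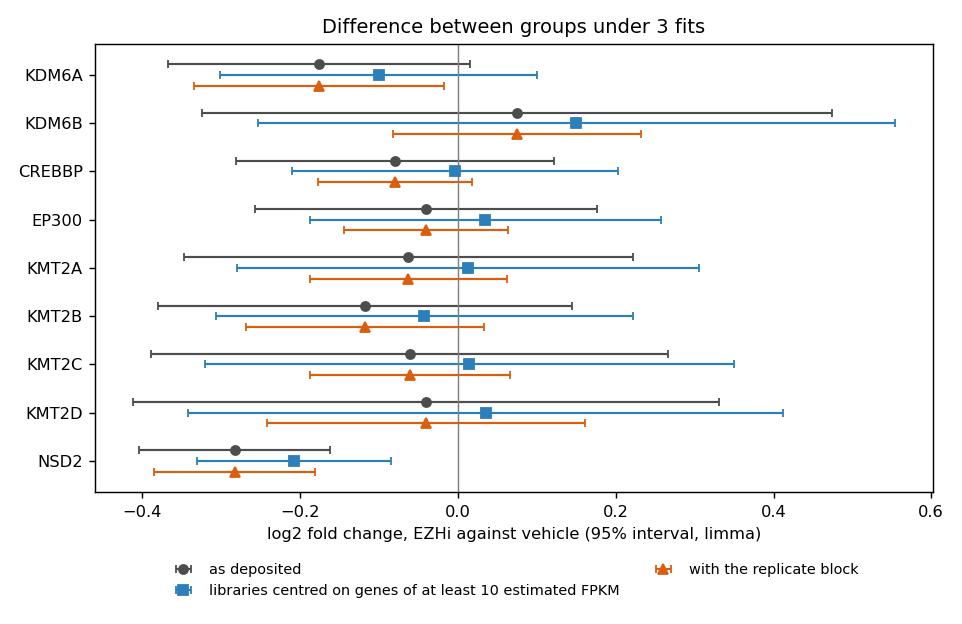
Log2 fold change of the 9 enzymes tested (EZHi against vehicle, points) with 95% intervals from limma (bars), for the values as deposited, with libraries centred on genes of at least 10 estimated FPKM, and with the replicate block. The interval of NSD2 stays below 0 in all 3 fits, and centring moves every point to the right.

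Changes of paralogs were then compared within libraries, which removes the scaling of each library where both genes are above the floor. In vehicle KDM6B exceeded KDM6A by 0.91 ± 0.26 log2 units (SD, n = 4) and in EZHi by 1.16 ± 0.30 (SD, n = 4). This rise of 0.25 was positive in 4 of 4 pairs, from 0.030 to 0.51, but was within the spread of the libraries (two-sided exact permutation p 0.20, adjusted p 0.50 over 5 pairs of paralogs). The change in the difference was -0.055 for KMT2B minus KMT2A, 0.021 for KMT2D minus KMT2C and 0.039 for EP300 minus CREBBP, with exact permutation p of 0.543, 0.857 and 0.60. The sign for KMT2D minus KMT2C turned without vehicle replicate 3 or EZHi replicate 4 and with the length and GC trend removed. For NSD2 minus NSD1 the change of -0.43 reached the smallest p that the 70 assignments allow (exact permutation p 0.0286, adjusted p 0.143). Since NSD1 was at the floor, subtracting it does not remove the library scaling. NSD2 alone changed by -0.283. The rest of the -0.43 came from NSD1 values at the floor, -1.90 and -2.03 in EZHi replicates 1 and 2 against -2.25 in the other libraries. None of the 5 paralog pairs passed the correction. A single pair could not pass it, since the smallest possible p of 0.0286 becomes 0.143, so the missing calls do not show that the differences were unchanged.

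Most members shared a pattern by replicate number, which was noticed in these values. For 7 of the 9 tested members (KDM6B, CREBBP, EP300 and the KMT2 genes), replicates 3 and 4 were both above replicates 1 and 2 in vehicle and again in EZHi. This arrangement was found for 10.9% of all genes tested, and the opposite one for 12%. The mean log2 value of the 9 members was 9.16, 9.14, 9.41 and 9.37 in vehicle replicates 1 to 4 and 9.01, 9.06, 9.31 and 9.36 in EZHi replicates 1 to 4. KDM6A and NSD2 did not show it. KDM6A had this arrangement in EZHi but not in vehicle, where replicate 4 was below replicate 2, and its replicates 3 and 4 differed from replicates 1 and 2 by 0.057 and 0.10 on average. In NSD2 these differences were -0.019 in vehicle and -0.054 in EZHi. In KDM6B the same differences were 0.49 and 0.50, and in KMT2D they were 0.225 and 0.604.

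The members have long transcripts, with a longest annotated transcript from 6728 bases in KDM6B to 20686 bases in KMT2D. Over the 4030 genes with the longest mean transcripts (2421 bases and over), the median difference of replicates 3 and 4 from replicates 1 and 2 was 0.021 in vehicle and 0.032 in EZHi. Over the 4030 genes with mean transcripts from 786 to 1212 bases it was -0.032 and -0.023. By mean length, CREBBP (1572 bases) and EP300 (2257 bases) are not among the longest genes. The median difference was -0.019 in vehicle and -0.0089 in EZHi over genes of 1212 to 1663 bases. Over genes of 1663 to 2421 bases it was -0.0083 and -0.00074. In the 7 members with the pattern the differences ranged from 0.19 to 0.60. The part of length or RNA quality in the replicate pattern was not tested. The labels give no date or batch for the replicates. Including the replicate number as a block narrowed the intervals of the members, but NSD2 (limma adjusted p 0.00174) remained the single one called with the block alone, where 15.1% of all genes were called lower and 14.9% higher.

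**Figure D3:**
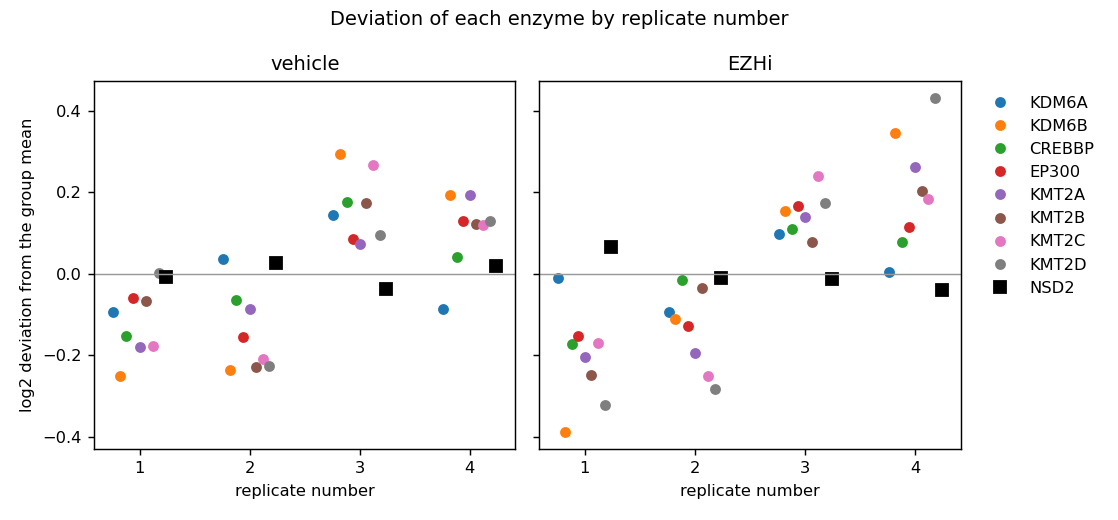
Deviation of the log2 value of each of the 9 enzymes tested from the mean of its group, for replicates 1 to 4 of vehicle (left) and EZHi (right), with one point per gene and library. Points of replicates 3 and 4 lie mostly above 0 in both groups, whereas NSD2 (black squares) stays near 0 in every library.

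Levels were next compared between members on the length-corrected scale in vehicle. The order was CREBBP (10.81), EP300 (10.52), NSD2 (10.33), KMT2B (9.60), KMT2D (9.41), KMT2A (8.69), KDM6B (8.41), KMT2C (8.16), KDM6A (7.50) and NSD1 (-2.25). The ranges of the 4 libraries overlapped between KMT2B and KMT2D, KMT2A and KDM6B, and KDM6B and KMT2C, and a neighbor ranked higher exceeded the next in all 4 libraries in every case. Of the 9 tested members, KDM6A had the lowest estimated FPKM (7.09 ± 0.56 in vehicle, SD, n = 4) and CREBBP the highest (70.6 ± 7.03, SD, n = 4). The order depends on the length used, because the mean over all annotated transcripts includes many short ones. The longest transcript exceeds this mean 6.86-fold in CREBBP but 2.24-fold in NSD2. With the length of the longest transcript, an alternative chosen after seeing the data, NSD2 ranked first at 9.16, followed by EP300 at 8.56 and CREBBP at 8.03, and KDM6A remained the lowest tested member at 6.23.

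The expression profiles most like those of the members over the 8 libraries were then looked up among 12248 other genes. Profiles of 8 values that include a group difference often resemble each other, so the coefficients are descriptions. For NSD2 a close profile was that of GRPEL1, a cochaperone of the mitochondrial matrix, with a Pearson coefficient of 0.988 and a log2 fold change of -0.23. For KDM6A the closest were MTF2, a PRC2 accessory subunit (0.973), and CEP57, a centrosomal protein (0.972), and for KMT2B they were RFNG (0.966) and PLEKHH3 (0.964).

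Partner and related enzymes were examined in the same fit. Of 47 related genes tested, 0 were called higher and 2 lower (4.26%). Of all genes tested, 8.85% were called higher and 4.27% lower. Most of the related genes were at or above 10 in estimated FPKM, a level at which 2.73% were called higher and 9.16% lower. ASH2L (ENSG00000129691), a core subunit shared by KMT2 and SETD1 complexes, had values of 10.55, 10.46, 10.54 and 10.52 in vehicle and 10.22, 10.13, 10.20 and 10.08 in EZHi replicates 1 to 4. Its change of -0.36 on the log2 scale had a standard error of 0.058 (limma adjusted p 0.00275). The groups did not overlap for ASH2L, as for NSD2, and it was called lower in each of the 20 alternatives run.

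By list, 1 of 15 partners of the H3K4 methylases, including the SETD1 enzymes, was called lower (ASH2L), while the scaffold WDR5 changed by -0.08 and the tumor suppressor menin (MEN1) by -0.12. Among 5 H3K4 demethylases 0 were called, with the smallest p for KDM5A (-0.16, limma adjusted p 0.266). Among 7 other acetyltransferases 0 were called, with the smallest p for KAT8 (-0.12, limma adjusted p 0.312). Among 8 other H3K36 enzymes 0 were called, with the smallest p for the demethylase KDM4C (-0.33, limma adjusted p 0.105). Of 5 deacetylases 0 were called, HDAC1 being the closest (-0.17, limma adjusted p 0.121), and of the 4 core genes of H3K27 methylation 0 were called, SUZ12 being the closest (-0.11, limma adjusted p 0.399). The median log2 fold change of these 6 lists ranged from -0.18 (other H3K36 enzymes) to -0.0036 (other acetyltransferases), and from -0.11 to 0.072 with libraries centred on genes of at least 10 estimated FPKM.

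With the replicate block, 10 of the 47 related genes were called lower and 0 higher, where 15.1% of all genes were called lower. The lower ones included 4 of the 8 other H3K36 enzymes, namely KDM4C (limma adjusted p 0.00435), KDM2A (0.0196), SETD2 (0.0192) and NSD3 (0.0191), named after their values were seen. SETD2 places H3K36me3 and NSD3 is the third NSD paralog. Their log2 fold changes were -0.33, -0.21, -0.19 and -0.19, and they became -0.25, -0.13, -0.12 and -0.11 with centred libraries. BRD2 was listed at 3.04 to 6.20 across the libraries, with an SD of 1.1 in vehicle. Since nearly all of its exon windows occur on alternate contigs, its value is uncertain.

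**Figure D4:**
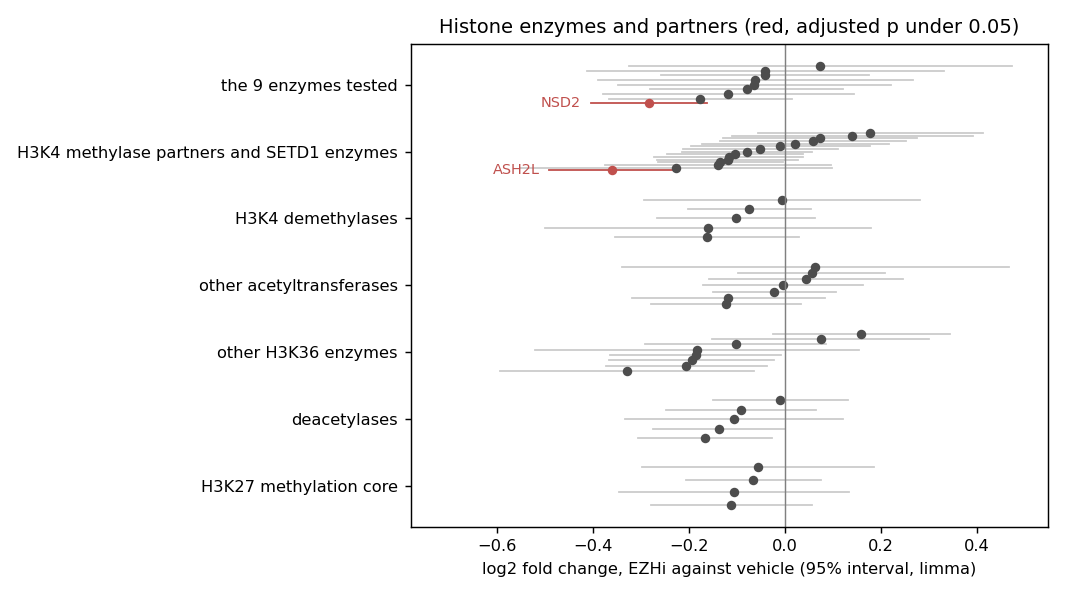
Log2 fold change (EZHi against vehicle, points) with 95% intervals from limma (bars) for the 9 enzymes tested and for 44 related genes in 6 lists. Genes with an adjusted p under 0.05 are in red and named; these are NSD2 and ASH2L, both lower in EZHi.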

How the data were processed

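RNA-seq libraries (4 vehicle, 4 EZHi) were grouped and numbered by their titles. The deposited values are log2 values. Per the study's methods, the authors aligned reads to hg38, counted them per gene over exons without strand at a minimum alignment quality of 10, removed genes with under 10 reads in all samples, applied the regularized log of DESeq2 and corrected for mean transcript length. The submitters' processing notes name HISAT2 2.2.1, HTSeq 0.9.1 and DESeq2 1.40.2. The regularized log shrinks differences of low genes. Read depth per library is unknown, so that no counting interval is given.

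Of 25604 rows, 1 repeated a gene, and 25594 of 25603 genes were found in GENCODE 44 (GRCh38), which gave coordinates, lengths and GC content. Estimated FPKM is 2 to the power of the value, divided by the mean library sum of value times length (25.6 on the scale of FPKM). Genes with a mean of at least 0.1 were tested with limma (trended prior, no covariate beside the group, two-sided p adjusted after Benjamini-Hochberg), after a check on simulated data. Paralog differences were tested by exact permutation over 70 assignments. All 10 members were named, with the called genes of each related list or else the one with the smallest p, and for NSD2, KDM6A and KMT2B (largest changes) the 2 most correlated genes. Members and lists were chosen with earlier results of these data known. Replicate numbers pair the libraries: deviations from group means correlated from 0.22 to 0.63 for equal numbers (4 pairs) and from -0.58 to 0.20 otherwise, so a fit with the replicate number as a block was an alternative. Exon windows of 32 bases were matched to hg38 with its 261 alternate contigs. Promoter sequences are from RefSeq (GRCh38.p14), matched for 10 of 10 members. Planned protein stretches are not used here, and some genes that the naming rule gives are not reported here. Software was R 4.3.3, limma 3.58.1, Python 3.11.15, numpy 2.4.6, pandas 2.3.3 and matplotlib 3.10.9.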

Additional observations from a re-analysis of the deposited data

Results flagged for a closer look

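In groups of 4 values, a library was singled out when its distance from the closest other one exceeded the 95% critical value of Dixon for the share of the range of the group. This was met by 1 of 26 groups of values of the tested enzymes and their paralog differences, where chance gives about 1.3. EZHi replicate 2 stood apart in KMT2B minus KMT2A, at 1.01 against 0.79 to 0.81 in the other EZHi libraries (gap of 0.921 of the range). Without this library the change of this difference between groups was -0.109, against -0.0548 with it, and neither was called by the exact permutation test.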

How the results depend on the processing

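NSD2 was lower in all 20 alternatives run and lost its call in 1, quantile normalization (-0.19). Leaving out each library moved it between -0.305 and -0.27, with limma adjusted p up to 0.0291. The number of members called lower was 1, against 0 with quantile normalization and 3 with the replicate block and the length and GC trend removed, which added KDM6A and KMT2B. No member was called higher in any alternative. Signs of uncalled members were not stable. With libraries centred on genes of at least 10 estimated FPKM, with or without the replicate block, KMT2A (0.0124), KMT2C (0.0143), KMT2D (0.0353) and EP300 (0.0347) turned positive. With quantile normalization KMT2D (0.0456), EP300 (0.0703) and CREBBP (0.0393) did. With the length and GC trend removed, with or without the block, KDM6B became -0.00441, and KMT2D minus KMT2C became -0.0401 without the block. Leaving out each library moved KDM6A between -0.209 and -0.128, CREBBP between -0.131 and -0.0203, KMT2B between -0.194 and -0.0352, KDM6B between -0.0403 and 0.204, KMT2A between -0.151 and 0.00526, KMT2C between -0.141 and 0.0281, KMT2D between -0.184 and 0.0673, EP300 between -0.0961 and 0.0106 and KMT2D minus KMT2C between -0.062 and 0.0803. For paralog differences the replicate block was an exact sign-flip test, whose smallest p with 4 pairs is 0.125, and thus made no call. Quantile normalization could not be applied to NSD2 minus NSD1, because NSD1 was below the filter. Related genes called lower numbered 10 with the replicate block, 4 with the length and GC trend removed and 21 with both, against 2, and those called higher numbered 2 with the block and centring and 1 with the block and the trend removed, against 0. Over the whole table, genes called higher numbered 1784, against 780 at the higher filter, 3003 with the block, 4115 with the block and centring, and 3249 with the block and the trend removed. Genes called lower numbered 860, against 398 with centring, 3048 with the block, 1676 with the block and centring, 3877 with the block and the trend removed, and 389 to 860 without each library. The cause of these shifts was not tested, except that the higher filter tests fewer genes. Depth is unknown, which leaves the precision of NSD1 without an interval.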
